A study of Arabidopsis thaliana with 12 samples.

Results

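Ribosome-protected fragments (RPF, the stretches of transcript that ribosomes shield from nuclease) were counted per gene in 6 of the 12 libraries of a study of whole Arabidopsis thaliana rosettes. The 6 were chosen by their titles: 3 libraries of plants given 10 min of high light (HL, 800 µmol photons m-2 s-1) and 3 of plants left in low light (LL, 8 µmol photons m-2 s-1). The other 6 libraries held total RNA and were used for comparison. Per the labels, all plants were Col-0, the standard laboratory accession, without a transgene or mutation named. They were 3 weeks old when they entered LL, and all spent 10 days there before HL or continued LL. Rosettes of both groups were harvested at midday. Both groups were extracted with cycloheximide, which stops cytosolic ribosomes, and with chloramphenicol and lincomycin, which stop plastid ribosomes. Of 28775 genes in the files, 27957 entered the analysis: nuclear and plastid genes without rRNA, tRNA and mitochondrial genes.

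A gene gains footprints when it has more transcript, when each transcript carries more ribosomes, or when ribosomes move over it more slowly, and RPF counts alone do not separate these. In leaves, a sudden rise in light is known to induce chaperones of the heat shock response and to damage the D1 protein of photosystem II, which is replaced by new synthesis from the plastid psbA transcript. Plants kept in dim light are known to express genes of carbon starvation, which sugars repress.

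The tested genes held 2007034, 1876744 and 1170245 counts in HL libraries 1, 2 and 3, and 1990548, 1275558 and 1526869 counts in LL libraries 1, 2 and 3. Number 1 libraries of both groups stood apart: rRNA took 83.4% to 85.4% of all their counts, against 4.42% to 8.66% in the other 4 RPF libraries, so results are also given without number 1. A nuclear row, AT2G01021, held 75023 counts in HL library 1 and 99215 in LL library 1 and none in numbers 2 and 3. It was not tested, and leaving it out gave 112 higher and 34 lower genes. Defining leaf genes were abundant, and their summed level was 10474 to 16949 counts per 1000000 (CPM) in HL and 8239 to 11433 CPM in LL over 4 mesophyll markers, of which CAB1 rose. The root markers EXPA7 and CASP1 had 0 counts in all 6 libraries, and the third, PYK10, which rosettes may also express, had 66.6, 52.4 and 74.0 CPM in HL and 70.6, 44.3 and 72.9 CPM in LL. Summed epidermis markers (5 of 5 tested) lay at 567 to 765 CPM in HL and 479 to 714 CPM in LL, phloem markers (3 of 3) at 189 to 266 CPM in HL and 207 to 347 CPM in LL, and guard cell markers (2 of 4) at 19.8 to 32.7 CPM in HL and 16.6 to 25.0 CPM in LL. None of these 10 tested markers passed the test, and their part in the results was not tested.

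Within 10 min of HL, footprints rose on 112 genes and fell on 33 of the 10906 genes tested, which is 1.03% and 0.303% of them, or 1.33% in both directions together. Each HL library was compared with the LL library of the same number by the edgeR quasi-likelihood test, and a Benjamini-Hochberg adjusted p under 0.05 over all genes counted as passing. The largest rises of named genes included heat shock regulators and chaperones, and the 2 largest of all were on AT1G59860 and AT1G66080, which the reference table does not name. Photosynthesis, a group drawn by hand from called genes, held 12 of the rises, among them psbA, of 0.43 to 1.38 on the log2 scale. The largest falls were smaller than the largest rises, and the medians were 1.05 for rises and -0.95 for falls. Both medians are over genes that passed the test, so they do not compare the size of rises and falls in general. Falls lay between -0.57 and -1.94 on the log2 scale and included transcriptional regulators, ubiquitin ligase adaptors and genes of carbon starvation. Of the rises 61 were of at least 1 on the log2 scale, a doubling, and of the falls 13. The HL and LL libraries did not overlap for 81 of the 112 rises and 23 of the 33 falls. The sign was the same in all 3 pairs for 108 rises and 32 falls. These are counts of genes chosen by the test, without the share over all tested genes, and give no separate support. Without number 1, 54 genes were higher and 8 lower. Without the pairing, 21 were higher and 0 lower. With scaling to library totals alone, the median log2 change of all genes moved to -0.27, and 83 genes were higher and 594 lower, so every change below is relative to the bulk of genes.

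**Figure D1:**
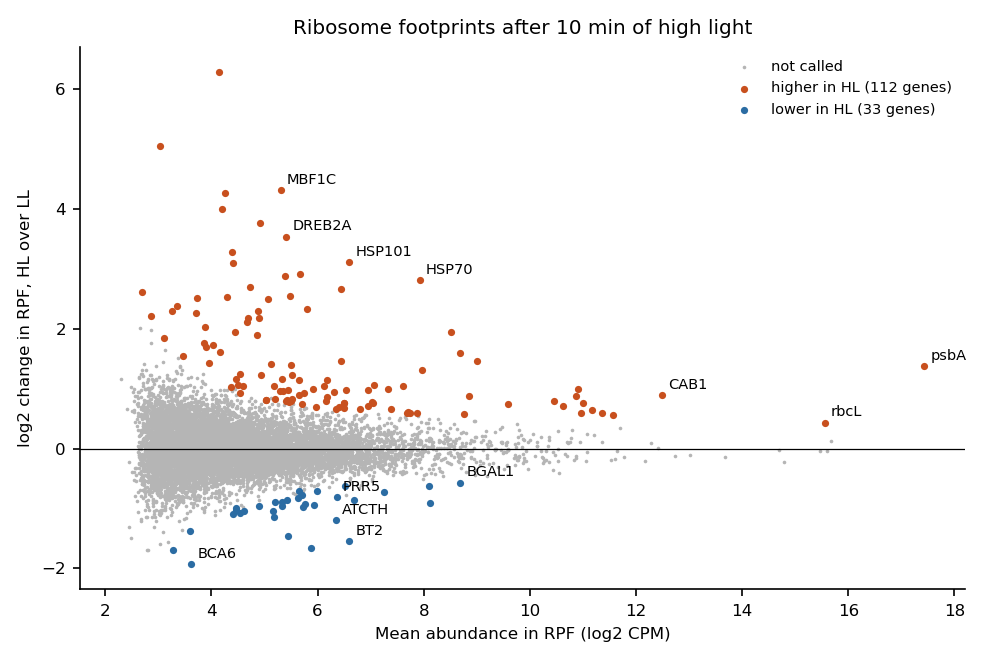
Log2 change in RPF, HL over LL (vertical axis), against mean abundance in log2 CPM (horizontal axis) for the 10906 genes tested, 1 point a gene, with 112 higher genes in orange and 33 lower genes in blue. Rises spread up to 6.29, falls reach -1.94, and psbA lies at the far right as the gene with the most counts.

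Regulators of the heat shock response were among the largest rises of named genes. Values are given for libraries 1, 2 and 3 in that order, as CPM of the tested genes after TMM scaling, and each log2 change stands with its standard error (SE) after the ± sign. MBF1C (AT3G24500, TAIR10 chromosome 3, 8918679 to 8919683), a coactivator of transcription in heat, had 81.0, 50.1 and 99.9 CPM in HL against 6.45, 2.14 and 1.92 CPM in LL. DREB2A (AT5G05410, chromosome 5, 1602205 to 1603926), a transcription factor of drought and heat, had 82.0, 87.4 and 59.5 CPM in HL and 4.73, 10.00 and 5.75 CPM in LL. HSFA2 (AT2G26150, chromosome 2, 11135682 to 11137396), a heat stress transcription factor, had 52.7, 92.6 and 128 CPM in HL and 1.72, 12.9 and 26.8 CPM in LL. The lowest HL library was above the highest LL library for each of the 3 genes, and LL libraries 2 and 3 already held more HSFA2 footprints than LL library 1. The log2 changes were 4.31 ± 0.29 for MBF1C (adjusted p = 3.6e-17), 3.54 ± 0.25 for DREB2A (3.96e-16) and 2.92 ± 0.25 for HSFA2 (2.12e-13). The heat stress factor HSFB2B (AT4G11660, AT-HSFB2B in the reference table) rose by 3.10 ± 0.32. These 4 were the called genes among 13 tested heat stress transcription factors and coactivators, whose median change was 0.14 against -0.01 for all genes. Without number 1 these 4 were again the called genes, of 11 then tested.

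Of 20 tested cytosolic heat shock proteins and co-chaperones, 14 rose and none fell, and the median change was 1.23. The list as written held 8 more identifiers, left out because the reference table does not give their names. Of these 6 were tested and all 6 rose, AT1G59860, AT1G54050, AT2G20560, AT1G07400, AT2G29500 and AT3G09440, and with them 20 of 26 rose, at a median of 1.74. HSP70 (AT3G12580, chromosome 3, 3991261 to 3993792), a cytosolic chaperone, had 324, 366 and 591 CPM in HL and 51.2, 37.9 and 97.8 CPM in LL. HSP101 (AT1G74310, chromosome 1, 27936508 to 27940190), which pulls proteins out of aggregates, had 136, 158 and 229.6 CPM in HL and 18.9, 3.57 and 42.2 CPM in LL. HSP90.1 (AT5G52640, chromosome 5, 21352399 to 21355361) had 132, 98.4 and 228 CPM in HL and 19.8, 14.3 and 39.6 CPM in LL. The groups did not overlap for any of the 3, and library 3 was the highest in each group. Their log2 changes were 2.81 ± 0.16 (adjusted p = 1.43e-19), 3.11 ± 0.23 (1.32e-15) and 2.66 ± 0.19 (3.7e-16). Some helpers of HSP70 and HSP90 also rose. Hop3, which links both chaperones, rose by 2.70 ± 0.29 and the peptidyl-prolyl isomerase ROF2 (AT5G48570) by 2.54 ± 0.22. The co-chaperone BAG6 rose by 2.33 ± 0.21, and Fes1A, a nucleotide exchange factor for HSP70, by 2.18 ± 0.25. ROF2, BAG6 and Fes1A were chosen after their values were seen. Hop1, Hop2 and CHIP, also in the list, were not among the called genes, and changes in the list reached down to -0.52. HSP81-2 and HSP81-3, constitutive HSP90 genes, rose by 1.95 ± 0.14 and 1.31 ± 0.15, but they are near-identical copies whose counts may be split. The smallest rise in the list was that of the constitutive chaperone HSC70-1, with 1613, 2041 and 2219 CPM in HL and 897, 1391 and 1356 CPM in LL and a log2 change of 0.70 ± 0.12. Without number 1, 12 of 20 tested members rose and the median was 1.24.

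Chaperones of organelles and the endoplasmic reticulum moved less, with 3 of 21 higher, none lower and a median of 0.08. The 3 were mitochondrial. With 2 more tested identifiers, left out for their names, 4 of 23 rose at the same median, and the fourth was Cpn60beta2, a subunit of the plastid chaperonin (0.93 ± 0.19). CLPB4, a disaggregase, had 15.4, 26.8 and 30.7 CPM in HL and 1.72, 20.7 and 3.20 CPM in LL, so LL library 2 overlapped HL and lay far above the other LL libraries. Its log2 change was 1.73 ± 0.36. MTHSC70-2, a mitochondrial HSP70, rose by 1.23 ± 0.20, and HSP60, the mitochondrial chaperonin, by 1.04 ± 0.26. The plastid chaperonin subunit CPN60B had 246, 239 and 191 CPM in HL and 265, 242 and 212 CPM in LL, with a log2 change of -0.09 ± 0.14 that did not pass (adjusted p = 0.896). Without number 1, 1 of the 21 rose, MTHSC70-2.

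Fewer genes rose in other lists tied to heat or stress responses. PDX1.2 (AT3G16050, chromosome 3, 5443950 to 5445329), a non-catalytic partner in vitamin B6 synthesis, had 29.8, 36.7 and 49.0 CPM in HL and 4.73, 2.86 and 3.20 CPM in LL and rose by 3.29 ± 0.32 (adjusted p = 3.11e-11), the 1 of 6 vitamin genes that did. SR45a (AT1G07350, chromosome 1, 2257425 to 2260101), a splicing regulator, had 37.3, 44.3 and 40.3 CPM in HL and 7.75, 9.29 and 11.5 CPM in LL and rose by 2.11 ± 0.26 (adjusted p = 3.04e-08), the 1 of 9 splicing factors that did. The groups did not overlap for either gene. EGY3, a plastid membrane protein related to proteases, rose by 2.37 ± 0.45, and was chosen after its values were seen. Of 14 tested early stress transcription factors 4 rose, the zinc finger proteins ZAT6 (1.43 ± 0.33) and SZF1 (0.96 ± 0.24), RAP2.4 of the AP2/ERF family (1.14 ± 0.18) and MYBR1 (0.80 ± 0.18), and 1 fell, MYB73 (-0.86 ± 0.21). RAP2.4 had 75.1, 133 and 86.4 CPM in HL and 39.6, 65.7 and 28.8 CPM in LL. SZF1 had 34.1, 51.2 and 69.2 CPM in HL and 13.8, 50.7 and 19.2 CPM in LL, and its values in pair 2 were nearly equal. The medians of this list within the 3 pairs were 0.87, -0.10 and 0.77, and RAP2.4 alone of the list was called without number 1. None of 15 genes of jasmonate, calcium and touch responses passed; JAZ1, a repressor of jasmonate signalling, had 33.0, 15.1 and 37.5 CPM in HL and 9.47, 17.9 and 16.0 CPM in LL (log2 change 1.00 ± 0.29, adjusted p = 0.0627).

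**Figure D2:**
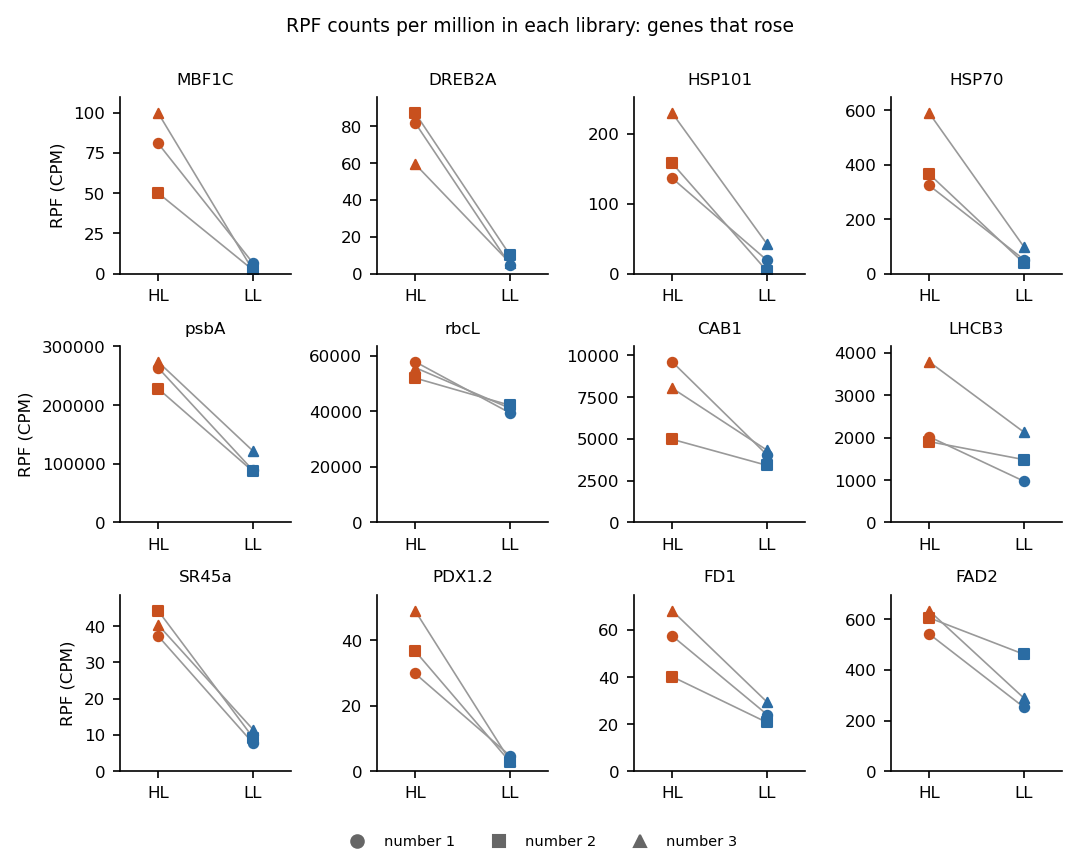
RPF level in CPM (vertical axis, from 0) of 12 genes that rose, in the 3 HL and the 3 LL libraries, with a line joining the libraries of the same number. Every line of the 12 genes runs higher at HL, and the gap between the groups is widest, relative to LL, for MBF1C and narrowest for rbcL.

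Of the 112 rises 41 were on protein-coding genes that carried only an identifier in the reference table. Of the 112, 63 were in no gene list, and 8 more were in a list by identifier alone, 7 of them without a name in the table: the 6 of the cytosolic heat shock list given above and AT3G09200 of the ribosomal list. The largest was AT1G59860 (chromosome 1, 22031413 to 22032132), with 56, 42 and 56 counts in HL and 2, 0 and 0 counts in LL, a ratio of 87.8 after scaling (95% counting interval 23.9 to 732). AT1G66080 (chromosome 1, 24600217 to 24601157) had 65 counts in HL and 2 in LL, a ratio of 37.1 (9.86 to 313). These intervals cover counting error alone. AT1G71000, AT1G54050 and AT2G20560 rose by 4.27 ± 0.39, 4.01 ± 0.37 and 3.76 ± 0.29, and AT3G14200 and AT2G19310 by 2.88 ± 0.25 and 2.50 ± 0.25. AT3G09440 (chromosome 3, 2903198 to 2905729), had 707, 724 and 813 CPM in HL and 204, 331 and 297 CPM in LL, with no overlap, and rose by 1.46 ± 0.14 (adjusted p = 7.58e-12). AT1G07400 and AT2G29500, of the same list as AT3G09440, rose by 2.54 ± 0.33 and 2.26 ± 0.38. AT2G19310, which was in no list, was chosen after its values were seen.

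In the plastid, footprints rose on psbA and rbcL. psbA (ATCG00020, plastid genome, 383 to 1444), which encodes D1, had 263605, 228093 and 273833 CPM in HL and 88662, 86825 and 121616 CPM in LL. Each HL library was above each LL library, and the log2 change was 1.38 ± 0.09 (adjusted p = 9.49e-18). rbcL (ATCG00490, plastid genome, 54958 to 56397), the large subunit of Rubisco, had 57835, 51965 and 55733 CPM in HL and 39390.2, 42148 and 41076 CPM in LL and rose by 0.43 ± 0.09 (adjusted p = 0.00292), again with no overlap. These were the 2 called genes of 72 plastid genes tested, none of which fell. No other photosystem II gene of the plastid passed. psbB, for the inner antenna protein CP47, had 18583, 37251 and 23490.3 CPM in HL and 21098, 38989 and 31436 CPM in LL, and its log2 change of -0.22 ± 0.10 did not pass (adjusted p = 0.404). Without psbA the plastid median was -0.15, 14 of 71 changes were positive, and the medians of the 3 pairs were -0.04, -0.04 and -0.33, so most of the shift lay in pair 3. The median was -0.35 for the plastid RNA polymerase (4 genes), -0.23 for plastid ribosomal proteins (18 genes) and -0.24 for the plastid genes outside named complexes (8 genes, rbcL among them). rpoC2, a polymerase subunit, had 1212, 1698 and 985 CPM in HL and 1732, 1806 and 1542 CPM in LL, and its change of -0.42 ± 0.12 missed the threshold (adjusted p = 0.0717). Genes of the plastid inverted repeat exist in duplicate, and their single counts are uncertain. psbA rose without number 1, without number 2 and without number 3, but it was not called without the pairing (adjusted p = 0.0764). rbcL was not called without number 1 (adjusted p = 0.64), without the pairing (1.00), by DESeq2 (0.284) or with library totals alone (0.0917).

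Proteins of the light-harvesting antenna bind chlorophyll and feed both photosystems, and they formed the main nuclear group of rises outside heat shock. Of 19 tested genes 8 rose, none fell and all 19 changes were positive, with a median of 0.30. LHCB3 (AT5G54270, chromosome 5, 22038273 to 22039568), of the photosystem II antenna, had 2024, 1908 and 3794 CPM in HL and 972, 1482 and 2129 CPM in LL. LHCB5 (AT4G10340, chromosome 4, 6408016 to 6409677), the minor antenna protein CP26, had 2829, 1744 and 3922 CPM in HL and 1528, 1385 and 2388 CPM in LL. LHCA4 (AT3G47470, chromosome 3, 17493372 to 17495033), of the photosystem I antenna, had 2613, 2518 and 4386 CPM in HL and 1528, 1941 and 2805 CPM in LL. The HL library was above the LL library of its own number in every pair of the 3 genes, while the groups overlapped, and library 3 was the highest in both groups. Log2 changes were 0.75 ± 0.12 (adjusted p = 2.1e-05), 0.65 ± 0.12 (0.000229) and 0.60 ± 0.11 (0.000501). The other 5 were LHCB1 genes with near-identical copies, uncertain one by one: LHB1B1 at 0.99 ± 0.12, CAB1 at 0.90 ± 0.11, CAB3 at 0.87 ± 0.12, CAB2 at 0.79 ± 0.13 and LHB1B2 at 0.55 ± 0.11. Without number 1, 3 of the 19 rose, and with library totals alone 7 did, at a median of 0.04.

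Elsewhere in photosynthesis few genes passed. Ferredoxin FD1 (AT1G10960, chromosome 1, 3664386 to 3665039), the soluble electron carrier after photosystem I, had 57.5, 40.2 and 68.2 CPM in HL and 24.1, 20.7 and 29.4 CPM in LL, with no overlap, and rose by 1.15 ± 0.21 (adjusted p = 0.000164). It was the 1 of 33 nuclear photosystem, electron transport and ATP synthase genes that did, and the median of the 33 was 0.11. NPQ4, the protein that senses acidity for heat dissipation, had 331, 320.3 and 423 CPM in HL and 210.0, 256 and 304 CPM in LL; the groups did not overlap, and the change of 0.49 ± 0.14 missed the threshold (adjusted p = 0.0621). EDA3, also named PSA2, an assembly factor of photosystem I outside the lists, rose by 0.80 ± 0.22; it was chosen after its values were seen. None of 19 Calvin-Benson cycle genes passed, and their median was 0.18. The small Rubisco subunit RBCS2B had 600.2, 90.8 and 156 CPM in HL and 373, 82.1 and 92.0 CPM in LL (log2 change 0.55 ± 0.15, adjusted p = 0.0538), a spread between numbers larger than the difference between lights. RBCS genes are close copies too.

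A few genes of ribosomes, membranes and metabolism were among the smaller rises. Of 26 tested cytosolic ribosomal proteins 2 rose, PFL (0.82 ± 0.22) and RPS18C (0.69 ± 0.19), copies that encode the same small-subunit protein, none fell and the median was 0.30. PFL had 61.2, 30.9 and 43.2 CPM in HL and 22.4, 22.1 and 33.9 CPM in LL, with most of the gain in pair 1; the list had no call without number 1, at a median of 0.17. With 6 more tested identifiers, left out for their names, 3 of 32 rose, the third being AT3G09200 (0.61 ± 0.15), at a median of 0.28. Outside the list the ribosomal proteins RPS15A (0.97 ± 0.22), RPL34 (0.66 ± 0.16) and SSR16 (0.78 ± 0.16) rose. Called genes of membrane traffic and transport, grouped by hand with no list behind them, were the syntaxin SYP23 (1.06 ± 0.26), the vesicle fusion protein VAMP711 (0.80 ± 0.21), the small GTPase ARFA1E (0.60 ± 0.15) and the amino acid permease AAP2 (0.79 ± 0.22). FAD2 (AT3G12120, chromosome 3, 3860285 to 3863050), the oleate desaturase of the endoplasmic reticulum, had 542, 606 and 634 CPM in HL and 252, 461 and 288 CPM in LL, again without overlap. It rose by 0.88 ± 0.14 (adjusted p = 1.89e-05). Glutathione transferases GSTU5 (1.46 ± 0.19) and GSTF8 (0.98 ± 0.16), aldolases FBA5 (0.59 ± 0.15) and FBA6 (0.67 ± 0.16), and ubiquitin-conjugating enzymes UBC8 (0.67 ± 0.18) and UBC28 (0.76 ± 0.17) rose as well. All genes of this paragraph except PFL, RPS18C, UBC8 and AT3G09200 were chosen after their values were seen. Of the 5 named ribosomal and 4 membrane genes none was called without number 1.

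Some rises were on genes whose footprints lay mostly in libraries of 1 number. Of all rises 5 were on non-coding genes, whose RPF reads need not come from ribosomes. MIR158a, a microRNA gene, had 0, 5.24 and 601 CPM in HL and 0, 7.86 and 240.3 CPM in LL, and TAS3, which makes small RNAs that act on auxin response factors, had 11.2, 13.98 and 141 CPM in HL and 3.44, 5.00 and 89.5 CPM in LL. Among protein-coding genes, AT3G20362 had 1819, 0 and 7.68 CPM in HL and 583, 0.714 and 2.56 CPM in LL, and AT1G06690 had 19.2, 25.0 and 236 CPM in HL and 13.3, 23.57 and 72.9 CPM in LL. AT3G20362 was almost absent outside number 1, and MIR158a outside number 3. AT3G43990, which the naming rule picked for its counts, had 1109.9, 545 and 5107 CPM in HL and 1065, 197 and 3996 CPM in LL, and pair 1 showed nearly no difference. The other 4 were chosen after their values were seen.

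Adaptors of ubiquitin ligases, grouped by hand from called genes without a count of those tested, held 3 of the falls. BT2 (AT3G48360, chromosome 3, 17908192 to 17910525), a BTB-domain adaptor that sugars are known to repress, had 70.3, 45.4 and 14.4 CPM in HL and 293, 82.1 and 43.5 CPM in LL. KMD1 (AT1G80440, chromosome 1, 30241607 to 30243071), a Kelch-repeat F-box protein that targets cytokinin response regulators, had 12.2, 48.3 and 26.9 CPM in HL and 67.1, 101 and 88.2 CPM in LL. Its relative KMD4 (AT3G59940, chromosome 3, 22142900 to 22144439) had 54.9, 74.0 and 87.4 CPM in HL and 108, 111 and 174 CPM in LL. The groups did not overlap for KMD1 and KMD4; BT2 was lower in HL in each pair, but its LL level was far higher in library 1 than in libraries 2 and 3. The log2 changes were -1.54 ± 0.20 for BT2 (adjusted p = 1.1e-07), -1.65 ± 0.21 for KMD1 (6.64e-08) and -0.86 ± 0.17 for KMD4 (0.000725). Without number 1, BT2 and KMD1 were called, and DESeq2 called all 3.

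Carbon starvation and sugar response genes held 3 of the falls, BT2, SEN1 and DIN10, of 25 tested, with no rise, 4 positive changes and a median of -0.41. SEN1, a gene of senescence and darkness, had 15.4, 19.2 and 45.1 CPM in HL and 50.3, 33.6 and 51.8 CPM in LL with a log2 change of -0.89 ± 0.23 (adjusted p = 0.0285). DIN10, a dark-induced gene of the raffinose synthase family, had 79.4, 87.9 and 179.6 CPM in HL and 267, 129 and 163 CPM in LL, with a log2 change of -0.73 ± 0.19 (adjusted p = 0.0324). DIN10 was higher in HL in pair 3, and the gap was widest in pair 1 for both genes. STP1, a sugar carrier and the most counted member, had 217, 155 and 463 CPM in HL and 466, 177 and 488 CPM in LL and did not pass (log2 change -0.46 ± 0.15, adjusted p = 0.157). The medians of the list were -0.71, -0.27 and 0.11 in pairs 1, 2 and 3, and without number 1 the median was -0.15 with 1 fall.

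Of the genes that fell 9 were transcriptional regulators, with a median change of -0.89, while 10 transcriptional regulators rose. The group was drawn by hand from called genes, and regulators among all tested genes were not counted, so no enrichment is shown. RAV1 (AT1G13260, chromosome 1, 4542168 to 4543742), an AP2/B3 factor, had 34.6, 38.4 and 29.8 CPM in HL and 64.1, 70.7 and 68.4 CPM in LL, close values within each group. Its relative RAV2, also known as TEM2, a repressor of flowering, had 19.7, 21.0 and 23.1 CPM in HL and 43.5, 25.7 and 70.9 CPM in LL. PRR5 (AT5G24470, chromosome 5, 8355951 to 8358873), a repressor in the circadian clock, had 51.1, 62.3 and 60.5 CPM in HL and 75.7, 108 and 129 CPM in LL. No HL library of the 3 genes reached any LL library. The log2 changes were -0.97 ± 0.19 for RAV1 (adjusted p = 0.000946), -1.05 ± 0.23 for RAV2 (0.00435) and -0.81 ± 0.17 for PRR5 (0.00328). PRR5 was the 1 called gene of 17 in the clock, whose median was -0.09; FKF1, a blue-light receptor of the clock output, had 42.6, 51.2 and 28.8 CPM in HL and 70.1, 75.0 and 40.9 CPM in LL and did not pass (-0.60 ± 0.19, adjusted p = 0.123). HBI1, a growth-promoting bHLH factor, fell by 0.63 on the log2 scale and OFP16, of the ovate family, by 1.03. Chosen after their values were seen were MYBL2, a repressor of anthocyanin synthesis (-0.82 ± 0.20), MYB73 (above), WRKY70, a factor of salicylate and jasmonate signalling (-0.89 ± 0.21), and DEWAX (AT5G61590), a repressor of wax synthesis (-0.95 ± 0.19). Without number 1, 3 of the 9 were called, PRR5, MYBL2 and RAV1.

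A pair of zinc finger proteins and a pair of cell wall enzymes were among the other falls, while the zinc finger protein SZF1 and the arabinogalactan protein AGP12 (0.83 ± 0.21) rose. ATCTH, also named TZF1 (AT2G25900, chromosome 2, 11041331 to 11043209), a tandem CCCH zinc finger protein, had 32.5, 50.7 and 58.6 CPM in HL and 71.9, 95.7 and 171 CPM in LL and fell without overlap, with a log2 change of -1.20 ± 0.18 (adjusted p = 4.33e-06). Its relative TZF5 (AT5G44260) changed by -1.04 ± 0.25 (adjusted p = 0.0156). The wall enzymes BGAL1, a beta-galactosidase, and BXL1, a beta-xylosidase, changed by -0.57 ± 0.14 (adjusted p = 0.0229) and -0.63 ± 0.16 (0.0239). BGAL1 had 355, 259 and 345 CPM in HL and 739, 289 and 474 CPM in LL, so its fall lay mainly in pair 1. Neither was called without number 1. BCA6, a mitochondrial carbonic anhydrase, had 6.39, 4.66 and 0.96 CPM in HL and 16.4, 15.71 and 19.2 CPM in LL, with few counts in HL. Its change of -1.94 ± 0.40 was the largest fall (adjusted p = 0.00172). CBL10, a calcium sensor of salt tolerance, changed by -1.38 ± 0.37 (adjusted p = 0.0433).

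**Figure D3:**
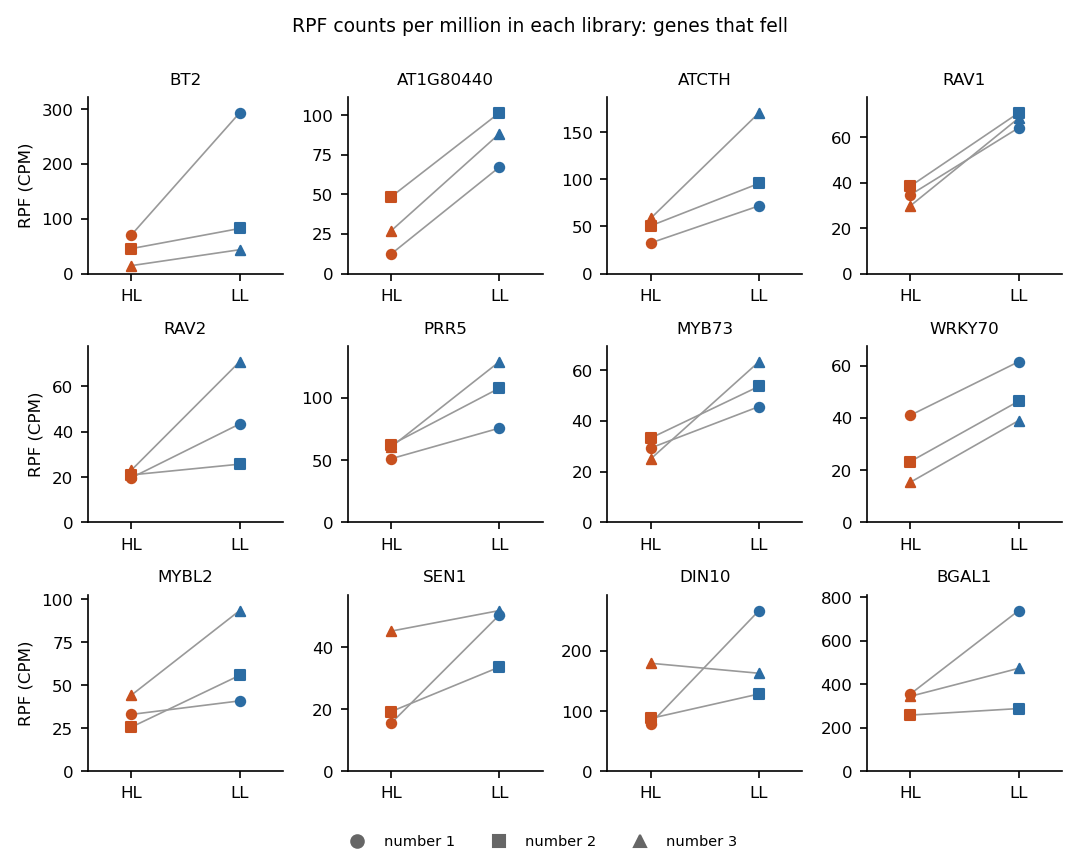
RPF level in CPM (vertical axis, from 0) of 12 genes that fell, in the 3 HL and the 3 LL libraries, with a line joining the libraries of the same number. The groups separate for AT1G80440 (KMD1), RAV1 and PRR5, while for DIN10 the pair of number 3 runs the other way.

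Of the falls 10 were on protein-coding genes without a name in the reference table. AT3G15450 (chromosome 3, 5212984 to 5214124) had 182, 164 and 218 CPM in HL and 444, 233 and 406 CPM in LL, and AT2G20670 (chromosome 2, 8911860 to 8913534) had 14.4, 28.5 and 25.0 CPM in HL and 57.2, 57.1 and 69.7 CPM in LL. Both separated the groups, with log2 changes of -0.91 ± 0.15 (adjusted p = 2.86e-05) and -1.47 ± 0.22 (2.54e-06). AT2G46620 changed by -1.70 ± 0.46 and AT5G21940 by -1.15 ± 0.22. AT1G74940 and AT5G50450 changed by -0.99 ± 0.27 and -1.10 ± 0.28. The other 4, between -0.71 and -0.96, were chosen after their values were seen: AT1G49500, AT5G19120, AT3G19850 and AT5G53440. RLP19, a receptor-like protein, and 2 small nucleolar RNA genes, AT3G24614 and AT4G13245, made up the remaining falls, at -0.70 ± 0.19, -0.78 ± 0.21 and -1.07 ± 0.30.

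In 15 further nuclear lists no gene passed in either direction. Medians of 14 of them lay between -0.14 for auxin response and 0.20 for cytosolic translation factors, each with 0 called: light signalling (23 tested), tetrapyrrole synthesis (21), starch and sucrose (20), cold and abscisic acid (19), nitrogen and sulfur assimilation (16), translation factors (15), antioxidants (14), glucosinolates (14), photorespiration (12), carotenoids (11), aquaporins (11), cell wall loosening (10), auxin (6) and phenylpropanoids (4). Nuclear genes for plastid gene expression, proteases and import had a median of -0.11 over 27 genes, with 8 positive and 0 called. In bulk rosettes, fewer cells of a type and less RNA per cell cannot be told apart in any of these values.

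**Figure D4:**
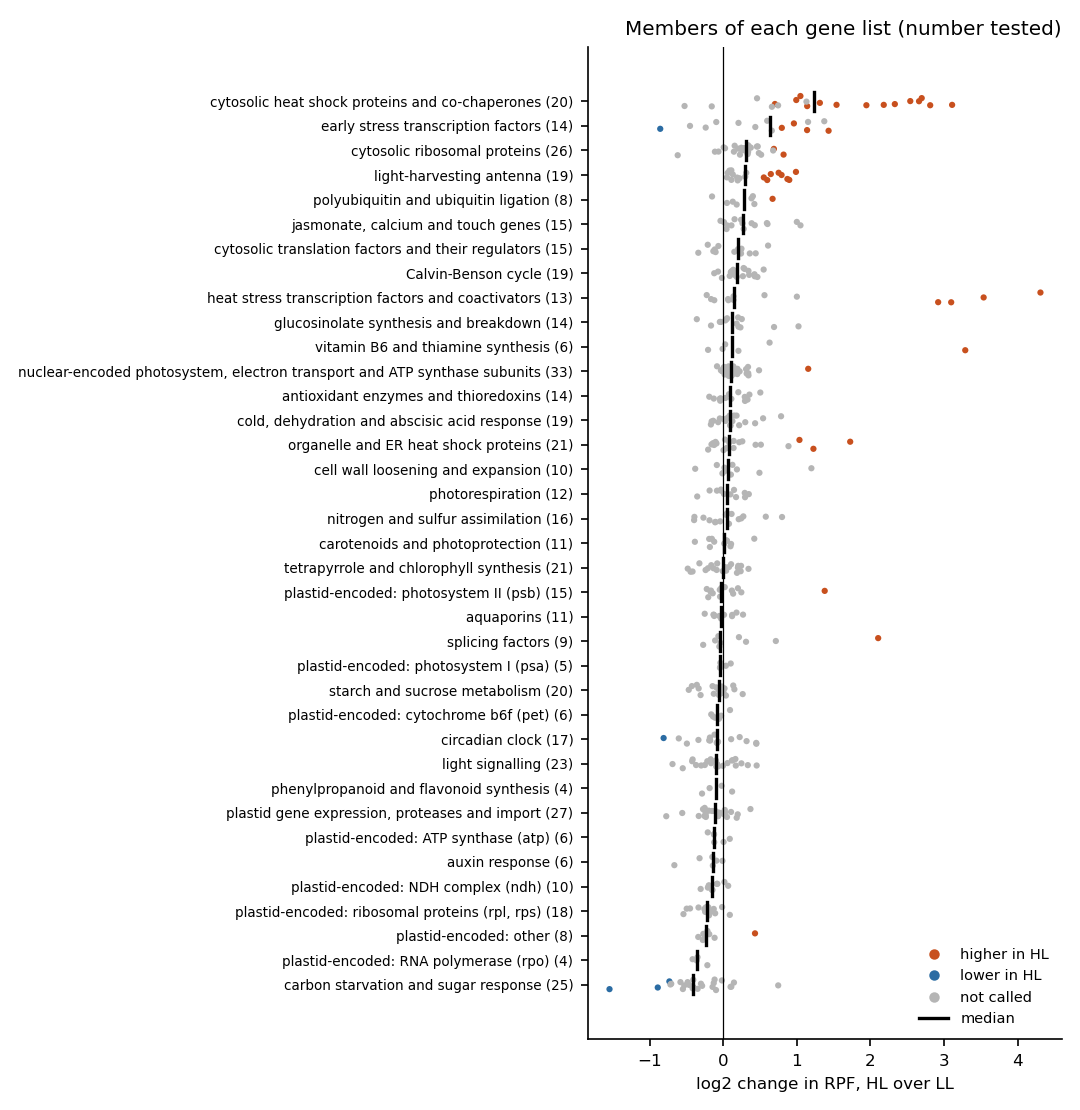
Log2 change in RPF, HL over LL (horizontal axis), of every tested member of each gene list (rows, number tested in brackets), with called members in colour and the list median as a black bar. Cytosolic heat shock proteins have the highest median at 1.23 and carbon starvation genes the lowest at -0.41.

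The total RNA libraries gave the transcript levels of the same genes. In total RNA 83 of 15899 genes rose (0.522%) and 41 fell (0.258%). Of the 112 genes that rose in RPF, 108 were tested in total RNA, where 52 were higher and 0 lower. Of the 33 that fell, 31 were tested, and 18 were lower and 0 higher. Of 19 heat shock proteins and co-chaperones grouped by hand from the genes that rose in RPF, 16 rose in total RNA. The median change of the 19 was 1.54 in RPF and 1.64 in total RNA. Their changes ranged from 0.70 to 3.11 in RPF and from 0.20 to 5.55 in total RNA. In the lists, which were not chosen by the RPF call, 13 of 23 cytosolic members rose in total RNA. Of the organelle and endoplasmic reticulum list 4 of 22 did. HSP101 changed by 5.27 ± 0.47 in total RNA against 3.11 in RPF, and HSC70-1 by 0.20 ± 0.23 against 0.70. Of the transcriptional regulators 9 of 10 rises and 8 of 9 falls were called in the same direction in total RNA, and the 3 ubiquitin ligase adaptors also fell, with medians of -1.54 in RPF and -1.21 in total RNA. Of the 12 photosynthesis genes that rose in RPF, with a median of 0.80, 1 was called in total RNA, FD1 (1.36 ± 0.16). The median of the 12 in total RNA was -0.14. They were chosen by their rise in RPF, which raises their RPF median. Over all 19 tested antenna genes the medians were 0.30 in RPF and -0.16 in total RNA. Over the 33 nuclear photosystem, electron transport and ATP synthase genes they were 0.11 and -0.05. psbA changed by 0.10 ± 0.58 in total RNA, CAB1 by -0.17 ± 0.30, LHCB3 by -0.08 ± 0.24 and rbcL by -0.12 ± 0.45. The 5 named ribosomal and 4 membrane genes also had no call there, at medians of 0.20 and 0.07. The test of the difference itself, fitted as a light by library-kind term on 12975 genes, called 0 in edgeR (0.0%), with 538 genes at an unadjusted p under 0.05 and a lowest adjusted p of 0.516; other settings of this fit called 0 to 8. None of these genes is therefore shown to have changed differently in RPF and total RNA.

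**Figure D5:**
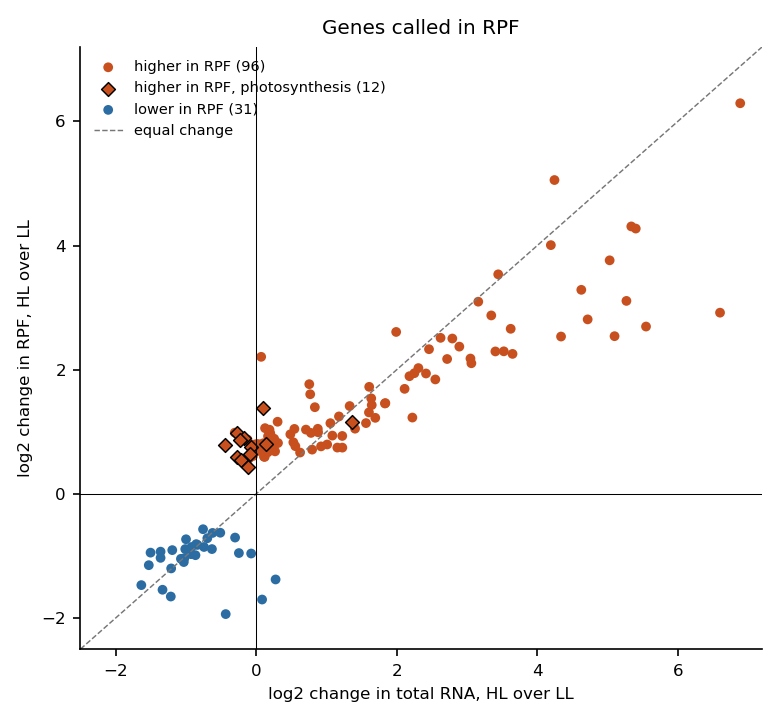
Log2 change in RPF (vertical axis) against log2 change in total RNA (horizontal axis), both HL over LL, for the 139 genes called in RPF and tested in total RNA, with the 12 photosynthesis genes as diamonds. The heat shock rises extend to the upper right, and the diamonds other than FD1 lie near 0 in total RNA, between -0.44 and 0.14.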

How the data were processed

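The study holds 12 libraries of whole rosettes, 3 each of RPF in HL, RPF in LL, total RNA in HL and total RNA in LL, and the labels call the 3 biological replicates. The deposited files, 1 a library, held unnormalized read counts that the authors made with featureCounts 1.5.0-p1, per the file headers, over whole TAIR10 gene spans with introns and UTRs, read by strand. Per the file headers RPF reads were aligned with Bowtie2 and total RNA with subjunc. The submitters' processing notes name Bowtie2 2.2.9, Subread 1.4.5, cutadapt 1.9.1 and FastQC 0.11.5. Ribosome positions and read lengths are not in gene counts. Counts over whole spans can include reads outside coding regions, and reads of near-identical copies can be split.

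Gene types and names came from the RefSeq table of assembly TAIR10.1, matched by locus tag, and coordinates are those of the files. rRNA (12 rows), tRNA (660 rows) and mitochondrial genes (146) were left out of library sizes and tests. Library totals and CPM are over tested genes. Tests used the edgeR 4.0.16 quasi-likelihood fit (R 4.3.3) after filterByExpr and TMM, with light and the replicate number as terms. Pairing by replicate number was set by the planned comparison, not chosen from correlations. The titles give only the number and do not say whether libraries of the same number were grown or harvested together. After removal of group means, same-numbered HL and LL libraries correlated across genes at 0.57, 0.45 and 0.40. Differently numbered ones correlated at -0.34 to -0.07. With 3 libraries a group, that removal pushes the differently numbered values below 0 when the same-numbered ones are positive, so they add no separate support. No 2 replicates were alike within sampling noise (chi-square per degree of freedom 6.66 to 17.9). The fit was also run on counts simulated from the fitted means and pair effects of these data, which cannot test the pairing itself. Alternatives were limma-voom (limma 3.58.1), DESeq2 1.42.0, other scalings, filters and gene sets, and leaving out libraries. The summary and figures used Python 3.11.15, pandas 2.3.3, numpy 2.4.6, scipy 1.17.1 and matplotlib 3.10.9.

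The gene lists (594 members, 29 left out because the reference table does not give their name; counts with these identifiers were added after seeing the data) and the choice of libraries were made with earlier results of these data known. Role groups of called genes were drawn by hand after the values were seen. Named genes were, among called genes whose mean log2 CPM reached 1 and that had the same sign in 3 pairs, the 15 largest rises, the 15 largest falls and the 8 with the highest CPM in each direction; then, in each list, the 3 lowest p and the most counted member; genes outside this rule are marked as such, and SZF1, BAG6, Fes1A, HSP81-3, CAB2, RLP19, AGP12, Cpn60beta2, AT3G24614, AT3G09440, AT1G07400, AT2G29500 and AT3G09200 were also chosen after their values were seen. Promoter sequences were not analysed here.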

Additional observations from a re-analysis of the deposited data

Results flagged for a closer look

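tRNA rows were outside the tests. Their share of all RPF counts was 1.63% (95% Wilson interval 1.63 to 1.64), 6.51% (6.48 to 6.54) and 19.6% (19.6 to 19.7) in HL libraries 1, 2 and 3, and 1.49% (1.4876 to 1.4998), 3.99% (3.96 to 4.02) and 10.3% (10.2 to 10.3) in LL libraries 1, 2 and 3. It stood out because it was higher in HL in 3 of 3 pairs, by 4.00 percentage points on average, while the groups overlapped. The gap was widest in pair 3 and smallest in pair 1. The share of mitochondrial genes was higher in HL in 0 of 3 pairs, with a mean difference of -0.72 percentage points. The intervals cover counting error only, and neither difference was tested.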

How the results depend on the processing

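The 112 higher and 33 lower genes in RPF depend on the pairing of libraries by number: with no replicate block 21 genes were higher and 0 lower (353 at an unadjusted p under 0.05), and all 21 were among the 112. Leaving out both libraries of a number in turn gave 54 to 109 higher and 8 to 38 lower genes, the fewest without number 1. Leaving out single libraries, which breaks a pair and needs the fit without the block, gave 0 to 15 higher and 0 to 0 lower; the lone count of 0 higher came without LL library 3, with 341 genes at an unadjusted p under 0.05. By DESeq2 with the block 54 were higher and 6 lower, all among the main calls. Library totals alone gave 594 lower genes and all rows of the files 21. The share of higher among called genes was 77.2% in the main fit, 12.3% with library totals alone, 90.0% by DESeq2 and 85.1% with all rows. limma-voom (149 and 49), median-ratio scaling (117 and 32), no filter (117 and 42), a stricter filter (107 and 30), protein-coding genes only (151 and 46), nuclear genes only (103 and 30) and, added after seeing the data, the fit without AT2G01021 (112 and 34) stayed within 1.5 times of both counts. The total RNA count of 124 went to 35 with no replicate block and to 193 without number 3, and lay between 122 and 193 over the 3 numbers left out. The interaction count of 0 went to 6 with library totals alone and to between 0 and 8 over the 3 numbers left out. Of the genes named, the sign changed for 9 when libraries were left out. Their log2 changes then ranged from -5.93 to 8.45 for AT3G20362, -4.98 to 5.85 for MIR158a, -1.36 to 3.68 for TAS3, -1.09 to 1.84 for AT3G43990, -0.71 to 2.33 for AT1G06690, -0.58 to 1.71 for RBCS2B, -0.54 to 0.013 for psbB, -0.16 to 0.016 for CPN60B and -0.16 to 0.16 for PYK10, which was at -0.22 with library totals alone; the cause was not tested. Depth limits the rest: with 1170245 to 2007034 counts on tested genes per library, 10906 of 27957 genes could be tested, and a gene that did not pass is not shown to be unchanged.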
